A study of Rattus norvegicus with 24 samples.

Results

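The limbs described here are those of a first period of disuse in the aged rat. They are the left tibialis anterior (TA), a muscle at the front of the lower leg, of the 3 animals sampled after a single period of tetrodotoxin (TTX), animals 362, 367 and 372, and the untreated right TA of the 9 TTX-treated animals, which serve as control. They were chosen by the labels for limb, condition and time, and make up 12 of the 24 samples. TTX blocks voltage-gated sodium channels, so that the nerve around which it is released carries no impulses. In the study, male Fischer 344 rats aged 23 ± 1 months received TTX from a pump through a cuff on the left common peroneal nerve for 6 to 7 days, and other animals had 9 days without TTX afterwards or a second period of 5 to 6 days. A further 3 sham animals, spread over the same 3 stages in the study, had the surgery with saline in place of TTX and gave both limbs. The 9 control limbs thus come from animals at 3 stages (362, 367 and 372 after the first period, the others after recovery or the second period), and only 3 of them are the partners of the limbs described. Polyadenylated RNA was sequenced from whole muscle, so fewer cells of a type and less RNA per cell cannot be told apart.

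A muscle that its nerve leaves silent shows a well-known set of changes in its RNA. Fibres make acetylcholine receptor subunits along their whole length, where otherwise only the nuclei below the endplate do so, and they make myogenic factors and embryonic forms of contractile proteins. Genes whose products serve contraction and its fuel supply tend to fall. Whether the same holds limb by limb in the aged TA, and for which genes, is what the limbs below allow to be described.

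Values are deposited CPM (the share of a gene in the reads of its library, on the same total for each) divided by a median of ratios size factor, and are called rescaled CPM. A row of the table was called when the fold change (FC) was at least 1.2 and the Benjamini-Hochberg adjusted p at most 0.05 in limma on log2(rescaled CPM + 1), a scale that understates the change of low genes. Values of the TTX limbs are given in the order of animals 362, 367 and 372, followed by the range of the 9 control limbs. The log2 FC is the difference of the group means, n = 3 against n = 9. Nothing in the labels gives the litter or cage of the animals, and each limb gave 1 library. The depth behind the values, inferred from their smallest step, was 26.03 to 30.7 M reads in the TTX limbs and 18.9 to 29.1 in the control limbs.

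Of 14031 rows tested, 1367 (9.74%) were called, 641 higher (4.57%) and 726 lower (5.17%) after TTX. The limbs contributed unequally. Among the rows called higher the median difference between the left and the right limb of an animal was 1.12 on the log2 scale in animal 362, 0.20 in animal 367 and 0.62 in animal 372. Among the rows called lower it was −1.33, −0.13 and −0.66. The left limb of animal 367 lay inside the range of the control limbs for 930 of the 1367 called rows (68.0%). For 396 called rows, 217 higher and 179 lower, all 3 TTX limbs lay outside the range of the 9 control limbs, as were 2.18% (higher) and 1.85% (lower) of all rows tested. Without the limb of animal 367, 2223 rows were called. Without that of animal 362 the count was 1 and without that of animal 372 it was 0, with 2116 and 2861 rows at an unadjusted p under 0.05.

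Both limbs of an animal can be set against each other because the labels give the animal. When limma held the animal as a block, no row was called, 2149 had an unadjusted p under 0.05, and the lowest adjusted p was 0.166, so each call printed below was lost in that fit. Dropping both limbs of animal 367 from that blocked model gave 759 calls (5.42% of rows), of which 536 were among the 1367. Of the 137 called genes named below by the rule for named genes, 91 were called in it too. The fit is named below as the blocked fit without animal 367. It was added after seeing that this animal changed least, so its calls depend on the response itself and are given as counts over lists, not as support for any gene.

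**Figure D1:**
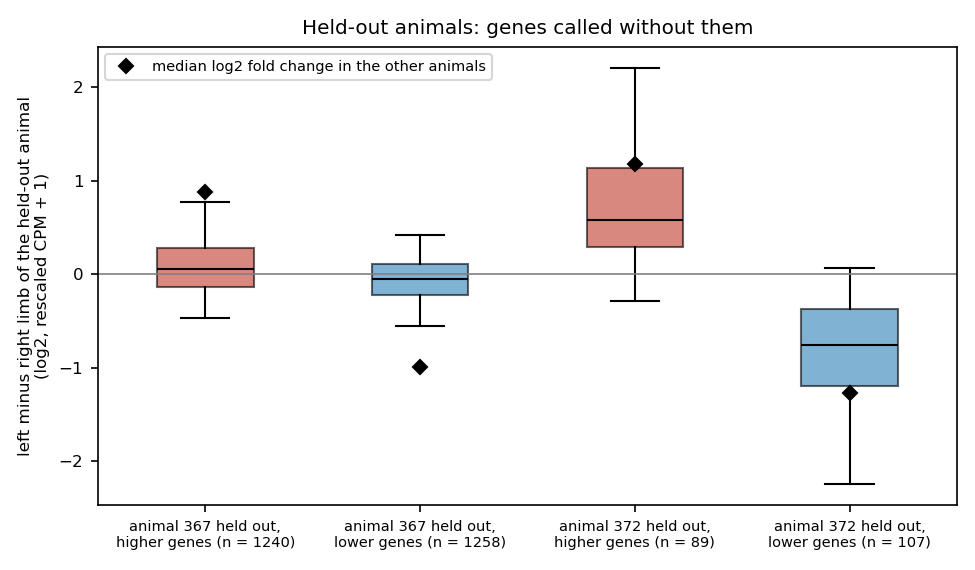
Difference between the left and right limb (log2, rescaled CPM + 1) of an animal that was left out of the fit, over the rows called without it. Boxes span the quartiles with the median, whiskers the 5th to 95th percentile, and diamonds mark the median log2 FC in the remaining animals. In animal 367 the boxes sit at 0.06 and −0.05 with diamonds at 0.88 and −0.996, in animal 372 at 0.58 and −0.75 with diamonds at 1.18 and −1.27.

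When an animal was held out of the fit altogether, its own limbs gave a reading that the calls had not used. Rows called without animal 367 (1240 higher, 1258 lower) had a median left minus right difference of 0.06 and −0.05 in that animal, where the fit on the others gave 0.88 and −0.996. The sign was the same for 58.0% of the higher and 58.2% of the lower rows, against 47.4% of all rows in either direction. Rows called without animal 372 were fewer, 89 higher and 107 lower. In that animal 88.8% and 92.5% of them went the same way, against 49.9% and 47.8% of all rows. Their medians were 0.58 and −0.75, where the fit on the others gave 1.18 and −1.27. Without animal 362 no row was called, at 2 TTX limbs, so that animal gave no reading of this kind.

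Control limbs also differed. The right limb of animal 372 was the highest of the 9 control limbs for 259 of the 641 rows called higher (40.4%, against 16.8% of all rows tested) and the lowest for 369 of the 726 rows called lower (50.8%, against 14.5%). The right limb of animal 367 came next, at 28.4% and 23.0%. Without the control limb of animal 372 the count of calls was 2068, and without that of animal 369 it was 868. Scaling mattered as well. With the values as deposited, 2844 rows were higher and 327 lower (20.3% and 2.33% of all rows), and the median log2 FC of all rows moved from −0.0017 to 0.22. Changes are given relative to the rescaled median, and where a list is counted the counts with the values as deposited follow, in words or in the same order in brackets. The falls of Aff1, Cry1, Cspg4, Dok7, Gsn, Lamb2, Mfn2, Ncf1, Per2, Pi16, Pink1, Tie1, Trim72 and Ubtf were then no longer called, and no named call changed sign. Sham animals, which differed in stage, were not in the fit, but their limbs also passed the control range. The left limb of animal 379 was above all control limbs for 48.8% of the rows called higher (15.9% of all rows) and below them for 61.3% of the rows called lower (15.4%). Its untreated right limb did so for 32.3% (13.8% of all rows) and 50% (13.3%). The left limb of animal 377 did so for 8.11% (8.38%) and 8.54% (5.89%). The left limb of animal 354 was above for 12.8% of the rows called higher (15.6% of all rows) but below for 28.2% of the rows called lower (10.6%), and its right limb was below for 18.04% (8.68%). For 107 of the 137 called genes named below, at least 1 sham left limb reached or passed the least changed TTX limb.

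**Figure D2:**
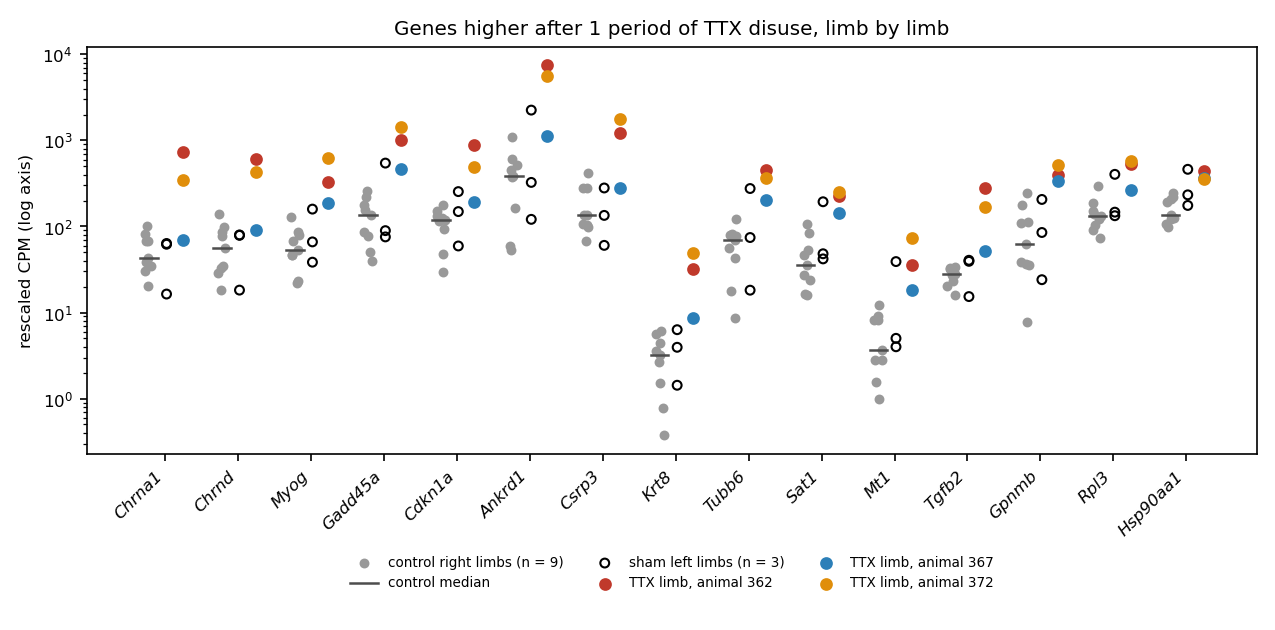
Rescaled CPM (log axis) of 15 genes called higher, with the 9 control right limbs in grey and their median as a bar, the 3 sham left limbs as open circles and the 3 TTX limbs in colour. Limb 367 lies lowest of the 3 TTX limbs for all but Hsp90aa1, and the top sham limb reaches or passes it for Ankrd1, Gadd45a, Cdkn1a, Tubb6, Sat1, Mt1, Rpl3 and Hsp90aa1.

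Genes of the acetylcholine receptor and the endplate moved in both directions: of 21 members tested, 5 rose and 5 fell (6 and 3 as deposited). The receptor is a channel of 5 subunits that opens when the nerve releases acetylcholine. Chrna1, its ligand-binding alpha subunit (rn7 chromosome 3, 58454765 to 58469833; coordinates are as deposited, and whether starts count from 0 or 1 is not given in the sources used here), had 735, 69.4 and 345 rescaled CPM in the TTX limbs and 20.1 to 100.4 (median 43.1) in control (log2 FC 2.41, SE 0.59, adjusted p = 0.021). Limbs 362 and 372 were above every control limb, and limb 367 was inside the control range. Chrnd, the delta subunit (chromosome 9, 87862417 to 87870834), had 602, 89.8 and 424 against 18.4 to 139 (median 55.9) (log2 FC 2.41, SE 0.57, adjusted p = 0.020), with the same split between limbs. Chrnb1, the beta subunit, changed less, with 182, 96.2 and 152 against 64.7 to 105 (median 84.2) (log2 FC 0.72, adjusted p = 0.016). Macf1, a linker of microtubules and actin that is found at the endplate, had 107, 44.8 and 79.7 against 45.1 to 54.2 (log2 FC 0.61, adjusted p = 0.032). Musk, the receptor kinase that gathers acetylcholine receptors, was the other member called higher.

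On the falling side, Ache, the enzyme that breaks acetylcholine down, had 2.42, 31.8 and 2.61 rescaled CPM after TTX against 11.1 to 92.6 (median 77.1) in control (log2 FC −2.81, SE 0.63, adjusted p = 0.016). Limbs 362 and 372 lay below every control limb and limb 367 did not. Dok7, an adaptor that activates Musk, had 7.99, 12.3 and 11.3 against 13.7 to 28.5 (median 20.5) (log2 FC −0.94, adjusted p = 0.021), and all 3 limbs were below the control range. Etv4 and Etv5, transcription factors of the endplate nuclei, and Unc5a, a netrin receptor, were also called lower. The median log2 FC of the list was 0.03, against −0.0017 over all rows. Limb 367 was inside the control range for 7 of the 10 called members, and 7 members were called in the blocked fit without animal 367.

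Myogenic factors bind the E-box CANNTG, a pattern that matches on both strands alike. A single site need not read the same on both, as CAGGTG is CACCTG on the other strand. The 250 bases before the start of 5 of these genes are shown since their RNA moved in opposite directions. Sequences and starts are those of RefSeq (GRCr8, not the build of the files), 5′ to 3′ on the strand of the gene, with every CANNTG in capitals.
Chrna1 (chr3:78877354-78877603, minus strand): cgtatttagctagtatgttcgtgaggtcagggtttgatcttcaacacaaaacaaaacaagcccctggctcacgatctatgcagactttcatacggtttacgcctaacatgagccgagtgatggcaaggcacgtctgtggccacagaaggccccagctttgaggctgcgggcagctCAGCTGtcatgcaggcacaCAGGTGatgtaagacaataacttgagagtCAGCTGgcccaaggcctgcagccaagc
Chrnb1 (chr10:55015108-55015357, minus strand): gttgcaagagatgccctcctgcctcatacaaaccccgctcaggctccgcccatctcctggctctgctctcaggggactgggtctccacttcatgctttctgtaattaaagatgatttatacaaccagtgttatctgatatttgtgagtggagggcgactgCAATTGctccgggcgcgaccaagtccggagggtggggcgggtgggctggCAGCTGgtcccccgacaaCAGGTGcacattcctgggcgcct
Chrnd (chr9:95310066-95310315, plus strand): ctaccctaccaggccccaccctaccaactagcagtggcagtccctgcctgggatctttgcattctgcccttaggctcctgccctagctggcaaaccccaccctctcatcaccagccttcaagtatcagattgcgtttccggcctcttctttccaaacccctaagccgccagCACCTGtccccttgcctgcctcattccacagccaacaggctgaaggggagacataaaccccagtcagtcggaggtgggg
Ache (chr12:25050411-25050660, minus strand): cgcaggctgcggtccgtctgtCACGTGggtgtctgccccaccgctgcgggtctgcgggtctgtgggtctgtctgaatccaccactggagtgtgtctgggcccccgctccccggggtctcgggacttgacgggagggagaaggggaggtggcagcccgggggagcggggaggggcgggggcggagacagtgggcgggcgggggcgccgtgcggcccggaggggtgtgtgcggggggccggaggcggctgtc
Dok7 (chr14:79924018-79924267, minus strand): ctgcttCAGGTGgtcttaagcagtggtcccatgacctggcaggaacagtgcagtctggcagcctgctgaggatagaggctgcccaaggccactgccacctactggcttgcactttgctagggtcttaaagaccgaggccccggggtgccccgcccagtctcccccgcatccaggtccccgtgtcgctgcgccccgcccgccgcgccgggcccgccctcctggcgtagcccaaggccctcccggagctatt
The window of Chrna1 held 3 such motifs, 2 of them CAGCTG, and that of Chrnb1 held 3, of which 1 was CAGCTG. The windows of Chrnd, Ache and Dok7 held 1 each and no CAGCTG. Of the called members not shown, Musk (higher) held 3 with 1 CAGCTG and Etv5 (lower) held 2 with 1 CAGCTG. Those of Macf1 (higher) and Unc5a (lower) held no CANNTG. Of the 16 listed genes with a window in RefSeq, 10 (62.5%) held CANNTG and 6 (37.5%) CAGCTG. Over all 33469 windows of this length the shares were 65.5% and 12.0%, and among 14 of the 15 genes with the largest rises without overlap between limbs 71.4% and 14.3%. A match describes letters and was not tested as a binding site.

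Of 19 myogenic and fusion genes tested, 5 rose and 0 fell (9 and 0 as deposited). Myog (myogenin, rn7 chromosome 13, 45745455 to 45748045), which drives myoblasts into fibres and is raised in denervated muscle, had 333, 186 and 627 rescaled CPM against 22.02 to 128 (median 53.4) (log2 FC 2.64, SE 0.50, adjusted p = 0.011). All 3 TTX limbs exceeded all 9 control limbs, and the sham left limbs reached 159. Myf6, the myogenic factor of adult fibres, had 619, 312 and 609.9 against 134 to 308 (median 162) (log2 FC 1.46, SE 0.24, adjusted p = 0.0093), and here too the groups did not overlap, though a sham left limb had 671. Myf5, the factor of satellite cells and the only member of that marker list to be called, had 35.8, 7.14 and 68.9 against 2.24 to 11.2 (log2 FC 2.30, adjusted p = 0.012), with 60.7 in the sham limb of animal 379. Mymk, a membrane protein needed for the fusion of myoblasts, had 94.3, 6.64 and 106 against 0.314 to 12.6 (log2 FC 3.14, SE 0.78, adjusted p = 0.022). It was high in limbs 362 and 372 and inside the control range in limb 367. Runx1, a transcription factor that is raised in denervated fibres, had 67.01, 18.9 and 79.3 against 2.04 to 20.3 (log2 FC 2.46, adjusted p = 0.013). Itga7 and Cdh15, abundant members of the list, did not pass (log2 FC 0.45 and −0.14, adjusted p = 0.29 and 0.75).

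Of 38 genes of growth arrest and p53 targets, 6 rose and 1 fell (15 and 1 as deposited). Gadd45a, a stress gene that is raised in denervated fibres (chromosome 4, 96154789 to 96157092), had 1001, 462 and 1442 rescaled CPM against 39.8 to 261 (median 135) (log2 FC 2.94, SE 0.53, adjusted p = 0.0096). The groups did not overlap. Cdkn1a, the cell cycle inhibitor p21, had 884, 192 and 497 against 29.9 to 179 (median 119.7) (log2 FC 2.15, SE 0.51, adjusted p = 0.019), again with no overlap. Btg2, which slows the cell cycle, had its highest value in limb 372, with 97.1, 106 and 308 against 27.96 to 111 (log2 FC 1.57, adjusted p = 0.021). Cdkn2b, the inhibitor p15, had 23.6, 7.06 and 16.2 against 2.94 to 14.2 (log2 FC 1.34, adjusted p = 0.038). Of 41 proliferation genes, 2 were called higher, near the 4.57% of all rows (7 as deposited). One was Pcna, the clamp of DNA polymerase, with 68.8, 38.1 and 41.4 against 20.2 to 41.97 (log2 FC 0.76, adjusted p = 0.050).

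Excitability genes fell more often than they rose. Among 33 ion channels, pumps and aquaporins, 11 were lower and 2 higher (7 and 4 as deposited). Clcn1, the chloride channel that sets the resting conductance of the fibre (chromosome 4, 71172547 to 71199985), had 41.97, 76.8 and 22.1 rescaled CPM against 87.4 to 145 (median 127) (log2 FC −1.46, SE 0.31, adjusted p = 0.012). All 3 TTX limbs were below all control limbs, and the sham limb of animal 379 was as low as 23.7. Scn4b, an auxiliary subunit of the sodium channel, had 147, 536 and 137 against 388 to 841 (median 761) (log2 FC −1.66, SE 0.32, adjusted p = 0.010). Limb 367 was within the control range. Aqp4, the water channel of fast fibres, was close to absent in limbs 362 and 372 but not in limb 367, with 0.878, 70.5 and 0.842 against 11.98 to 149.98 (median 61.7) (log2 FC −3.17, SE 0.89, adjusted p = 0.033). Lrrc38, an auxiliary subunit of a calcium-gated potassium channel, showed the same pattern with 1.44, 8.17 and 1.12 against 2.48 to 27.5 (log2 FC −2.13, adjusted p = 0.021).

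Among those that rose was Kcnn3, a small-conductance calcium-gated potassium channel known from denervated fibres, with 63.98, 23.1 and 59.3 rescaled CPM against 11.3 to 31.7 (median 17.3) (log2 FC 1.25, SE 0.31, adjusted p = 0.022). Limb 367 was inside the control range, and the other TTX limbs were above it.

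Of 31 genes of calcium handling, 5 rose and 7 fell. With the values as deposited 8 were higher and 5 lower, where 20.3% and 2.33% of all rows were. The median log2 FC of the list was −0.53, and −0.16 as deposited, against 0.22 over all rows as deposited. Those that fell included both junctophilins, which hold the sarcoplasmic reticulum against the transverse tubule. Jph1 had 49.1, 107 and 72.8 rescaled CPM against 111 to 208 (median 185) (log2 FC −1.17, SE 0.26, adjusted p = 0.015), with all TTX limbs below all control limbs. Jph2 had 17.4, 98.4 and 21.5 against 45.2 to 356 (median 252) (log2 FC −2.42, SE 0.60, adjusted p = 0.022), and its lowest control value, 45.2, was the right limb of animal 372. Mylk2, the calmodulin-driven kinase of the myosin light chain, had 129, 1271 and 176 against 939 to 2086 (median 1413) (log2 FC −2.19, SE 0.45, adjusted p = 0.012). Camk2a, a calmodulin-dependent kinase, had 9.06, 24.6 and 7.88 against 15.4 to 52.6 (log2 FC −1.33, adjusted p = 0.028). In each of these 4 genes limb 367 was the least changed.

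Sln and Mrln, small membrane proteins that restrain the calcium pump SERCA, both rose. Sln had 44.3, 14.8 and 67.4 rescaled CPM against 1.78 to 17.6 (median 5.90) (log2 FC 2.36, SE 0.51, adjusted p = 0.014), and Mrln had 106, 40.8 and 55.9 against 17.9 to 39.2 (median 32.1) (log2 FC 1.04, SE 0.24, adjusted p = 0.018). Rcan1, an inhibitor of the phosphatase calcineurin and itself a calcineurin target, had 471, 249 and 689 against 93.2 to 170.4 (median 111) (log2 FC 1.92, SE 0.28, adjusted p = 0.0091), with no overlap between the groups, while the sham left limbs reached 389. Cacnb1, the beta subunit of the voltage sensor, had 389, 253 and 443 against 153 to 248 (log2 FC 0.86, adjusted p = 0.012) and also did not overlap with control. The pump itself and its buffers were lower in mean but not called. Atp2a1 (SERCA1) had 9858, 37937 and 14304 against 32636 to 57403 (median 50302) (log2 FC −1.44, SE 0.63, adjusted p = 0.15), Casq1 had a log2 FC of −1.19 (adjusted p = 0.067) and Pvalb one of −1.39 (adjusted p = 0.19). Other settings did call them. Atp2a1 passed without limma's trend of variance on level (adjusted p = 0.013), with tested rows limited to a mean of at least 1 over the 18 limbs (0.018) and without TTX limb 367 (0.031). Casq1 passed with a mean of at least 1 (0.043), with array weights (0.019) and without TTX limb 367 (0.029) or control limb 372 (0.011), and Pvalb with array weights (0.038) and without control limb 372 (0.022).

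**Figure D3:**
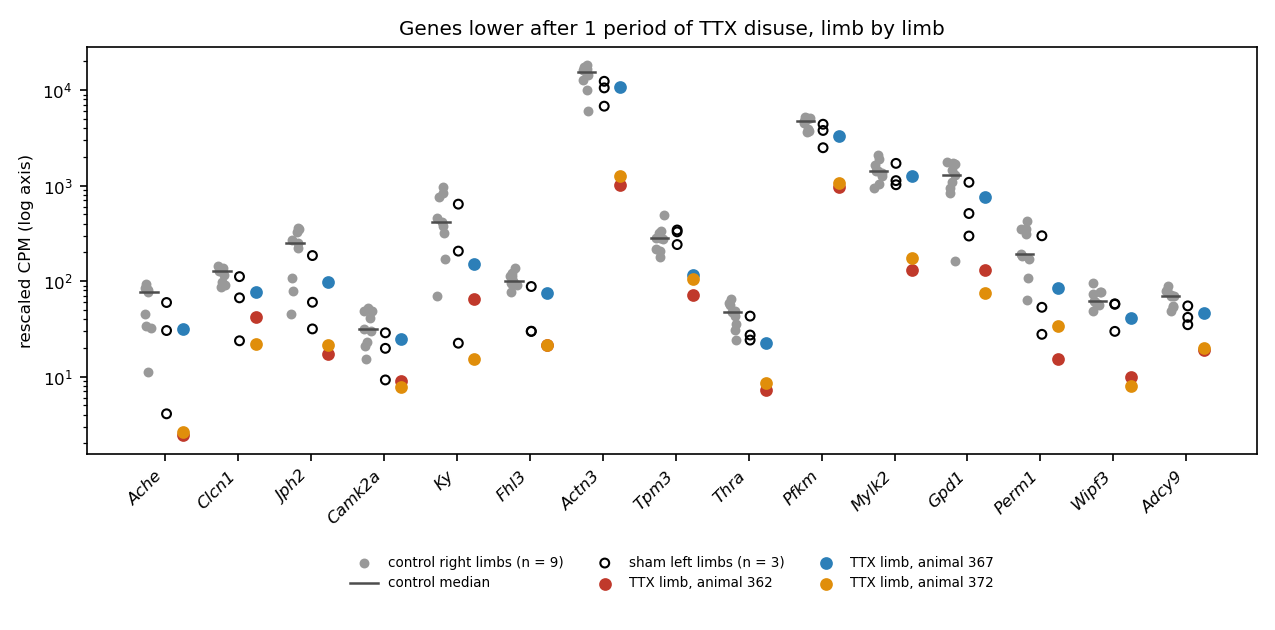
Rescaled CPM (log axis) of 15 genes called lower, drawn as in the plot of rising genes. Limb 367 lies above the other TTX limbs for all 15, and for Clcn1, Fhl3, Tpm3, Thra, Pfkm, Wipf3 and Adcy9 all 3 TTX limbs are below the 9 control limbs.

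Z-disc and mechanosensing genes were called in 15 of 36 cases, 7 higher and 8 lower (13 and 8 as deposited). Ankrd1, a stress-raised titin-binding protein (chromosome 1, 233815860 to 233824410), had the largest rise of the genes whose limbs did not overlap, with 7425, 1124 and 5609 rescaled CPM against 53.8 to 1103 (median 385) (log2 FC 3.65, SE 0.81, adjusted p = 0.016). Limb 367, however, exceeded the highest control limb by little, and the sham limbs reached 2250.5. Csrp3, the muscle LIM protein of slow fibres and heart, had 1205, 282 and 1762 against 68.5 to 418 (median 135) (log2 FC 2.45, SE 0.52, adjusted p = 0.013). The small heat shock proteins of the list also rose. Hspb7 had 1743, 624 and 2605 against 299 to 1116 (log2 FC 1.57, adjusted p = 0.021). Hspb8, which helps to clear damaged filamin, had 2744, 1119 and 2283 against 567 to 1039.8 (log2 FC 1.42, adjusted p = 0.0093).

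The falls of this list were led by Ky, Actn3 and Myoz1. Ky (kyphoscoliosis peptidase), needed for the growth of loaded muscle, had 64.7, 152 and 15.4 rescaled CPM against 69.5 to 965 (median 412) (log2 FC −2.80, SE 0.73, adjusted p = 0.026). Actn3, the alpha-actinin of fast fibres, had 1019.97, 10908 and 1256 against 6105 to 18125 (median 15456) (log2 FC −2.49, SE 0.56, adjusted p = 0.017). The contrast between limbs is plain here, since limb 367 kept 10908 and limb 362 1019.97. Myoz1, a calcineurin-binding Z-disc protein of fast fibres, followed with 603, 3302 and 509 against 1586 to 4949 (log2 FC −1.92, adjusted p = 0.020). Fhl3, a LIM protein (chromosome 5, 136954095 to 136960848), had 21.5, 74.8 and 21.4 against 76.99 to 138 (median 100.5) (log2 FC −1.63, SE 0.28, adjusted p = 0.0093), and all its TTX limbs were below all control limbs. Des, the desmin filament, did not pass (log2 FC 0.07, adjusted p = 0.91).

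Among the proteins of the thin filament and its neighbours (troponins, tropomyosins, actins, leiomodins and myosin-binding proteins), 4 of 27 genes rose and 6 fell (5 and 5 as deposited). Tnnt2, the troponin T of heart and embryonic muscle, had 42.8, 3.40 and 77.9 rescaled CPM against 1.31 to 7.52 (median 2.36) (log2 FC 2.62, SE 0.60, adjusted p = 0.017). Tpm3, the tropomyosin of slow fibres (chromosome 2, 175517226 to 175535994; 4 rows, the most abundant given), had 71.7, 115 and 106 against 179 to 489 (median 282) (log2 FC −1.52, SE 0.24, adjusted p = 0.0093), with no overlap and with 242 to 343 in the sham left limbs. The leiomodins, which nucleate actin filaments, moved apart. Lmod2 had 784, 385 and 952 against 152 to 885 (log2 FC 1.44, adjusted p = 0.034), whereas Lmod1 had 9.03, 109.7 and 9.26 against 51.7 to 177 (log2 FC −2.32, adjusted p = 0.015). Myosin-binding proteins moved apart as well, with Mybph at 771, 354 and 855 against 165 to 476 (log2 FC 1.15, adjusted p = 0.029) and Mybpc2, the form of fast fibres, at 809, 5359.9 and 1565 against 4493 to 11544 (log2 FC −2.08, adjusted p = 0.016). Acta1, the skeletal actin, had 12018, 21606 and 18496 against 19576 to 63311 (median 46202) and did not pass (log2 FC −1.25, SE 0.66, adjusted p = 0.24), though it did with a mean of at least 1 (adjusted p = 0.046) and without a trend (0.028).

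Genes of the cytoskeleton were higher in 7 of 36 cases and lower in 1 (17 and 1 as deposited). Krt8 and Krt18, which pair into keratin filaments, both rose from low levels. Krt8 (chromosome 7, 133124203 to 133131657) had 31.7, 8.55 and 48.6 rescaled CPM against 0.373 to 6.17 (median 3.18) (log2 FC 2.77, SE 0.55, adjusted p = 0.011). Krt18 had 7.75, 6.57 and 22.5 against 0.209 to 3.83 (median 1.79) (log2 FC 2.15, SE 0.50, adjusted p = 0.018), with no overlap in either gene. Tubb6, a beta-tubulin that is raised in regenerating and dystrophic fibres, had 453, 203 and 365 against 8.52 to 122.978 (median 69.1) (log2 FC 2.69, SE 0.59, adjusted p = 0.015). Lmnb2, a lamin, had 63.5, 20.1 and 111 against 5.07 to 21.6 (log2 FC 2.19, adjusted p = 0.013). Actg1, the cytoplasmic gamma-actin, was the member that fell, to 69.98, 90.9 and 83.3 from 89.6 to 239 (log2 FC −0.98, adjusted p = 0.024). Tubulin and actin genes are near copies of each other, and how the authors assigned shared reads is not given in the sources used here.

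**Figure D4:**
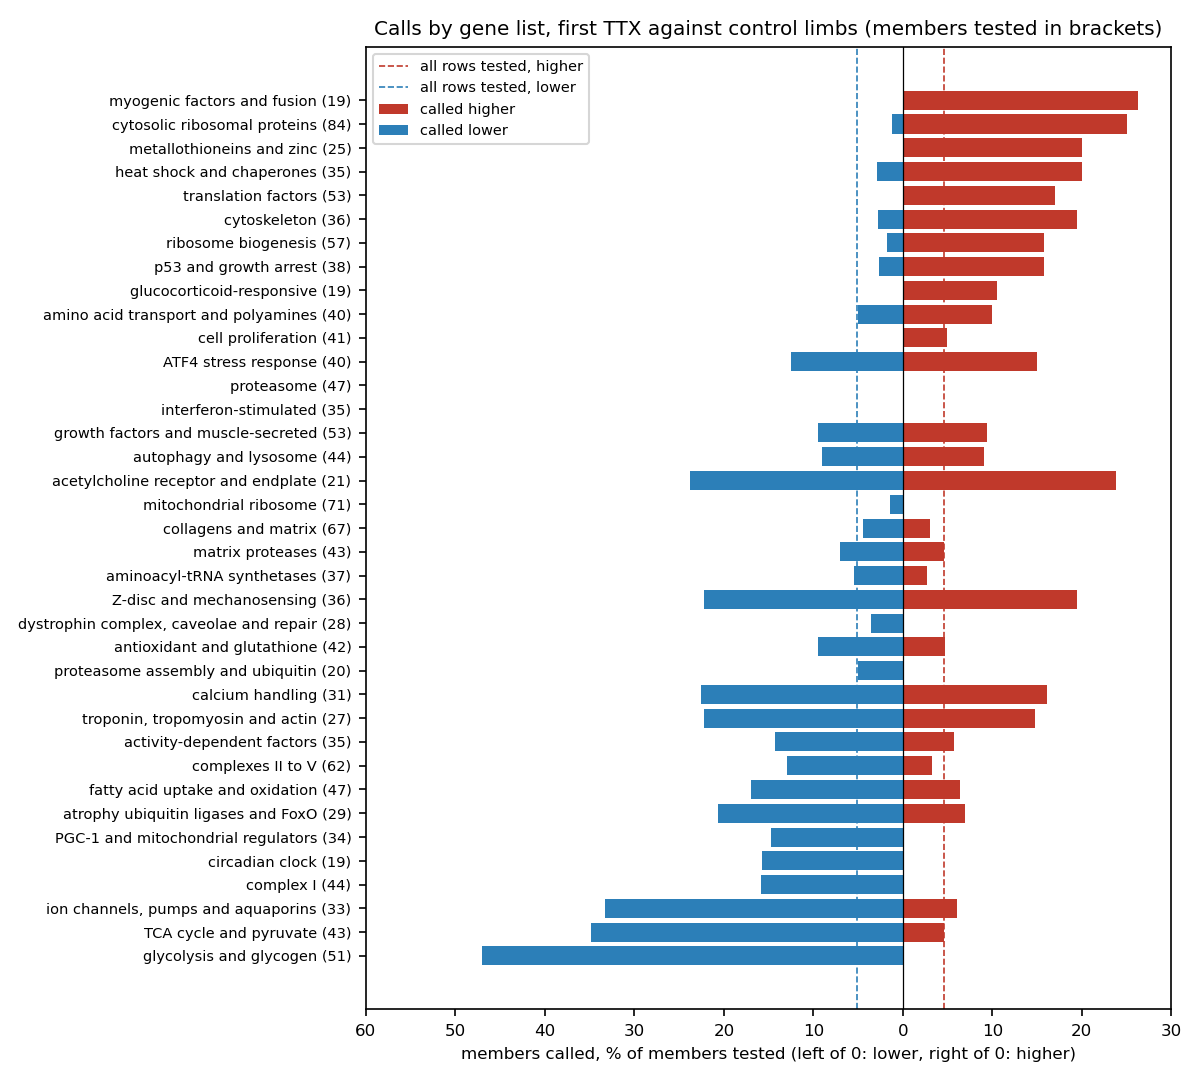
Share of the members tested (in brackets) of 37 gene lists that were called higher (right of 0) or lower (left of 0), in %, with the shares over all rows tested (4.57% and 5.17%) as broken lines. Glycolysis and glycogen has the longest bar to the left (47.1%), and myogenic factors and fusion the longest to the right (26.3%).

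Genes of glycolysis and glycogen fell in 24 of 51 cases and rose in none, where 5.17% of all rows were called lower. The median log2 FC of the list was −0.82, and the median left minus right difference was −1.32 in animal 362, −0.11 in animal 367 and −0.69 in animal 372. Pfkm, the muscle phosphofructokinase that commits sugar to glycolysis (chromosome 7, 129235172 to 129259193), had 958, 3330.1 and 1054 rescaled CPM against 3685 to 5287 (median 4804) (log2 FC −1.60, SE 0.31, adjusted p = 0.011). All 3 TTX limbs were below all control limbs, limb 367 by the smallest margin. Pfkfb1, which makes and removes the activator of phosphofructokinase, had 6.59, 55.4 and 4.73 against 42.8 to 88.3 (median 73.7) (log2 FC −2.35, SE 0.46, adjusted p = 0.011). Fbp2, the muscle fructose bisphosphatase, was near 0 in limbs 362 and 372, with 3.46, 83.9 and 2.09 against 16.99 to 174 (median 106) (log2 FC −3.14, SE 0.76, adjusted p = 0.021). Gpd1, the glycerol phosphate dehydrogenase, had 131, 760.2 and 74.3 against 163 to 1778 (median 1298) (log2 FC −2.40, SE 0.63, adjusted p = 0.027), and its lowest control value was 163 in the right limb of animal 372.

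Pygm, the glycogen phosphorylase of muscle, had 2718, 13119 and 3273 rescaled CPM against 10229 to 17512 (median 15872) (log2 FC −1.62, SE 0.44, adjusted p = 0.030). Slc16a3, the lactate exporter MCT4, had 40.1, 181 and 30.6 against 119 to 434 (median 329) (log2 FC −2.22, SE 0.44, adjusted p = 0.011). For the abundant enzymes Aldoa and Gapdh the call depended on the setting: Aldoa had 3629.8, 16271 and 4780.02 against 12026 to 22677 (log2 FC −1.53, adjusted p = 0.054) and Gapdh 5846, 13256 and 7824 against 12277 to 25898 (log2 FC −1.20, adjusted p = 0.10), so neither was called. Aldoa was called with the values as deposited (adjusted p = 0.038), a pseudocount of 10 (0.035), a mean of at least 1 (0.016), rows summed per symbol (0.0495), no trend (0.018) and array weights (0.019), and without TTX limb 367 (0.0033), control limb 367 (0.04996) or control limb 372 (0.029). Gapdh was called with a mean of at least 1 (0.022), no trend (0.018) and without TTX limb 367 (0.037). With the values as deposited, 20 members were lower and 4 were higher, and the median log2 FC was −0.51. The blocked fit without animal 367 called 17 members.

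**Figure D5:**
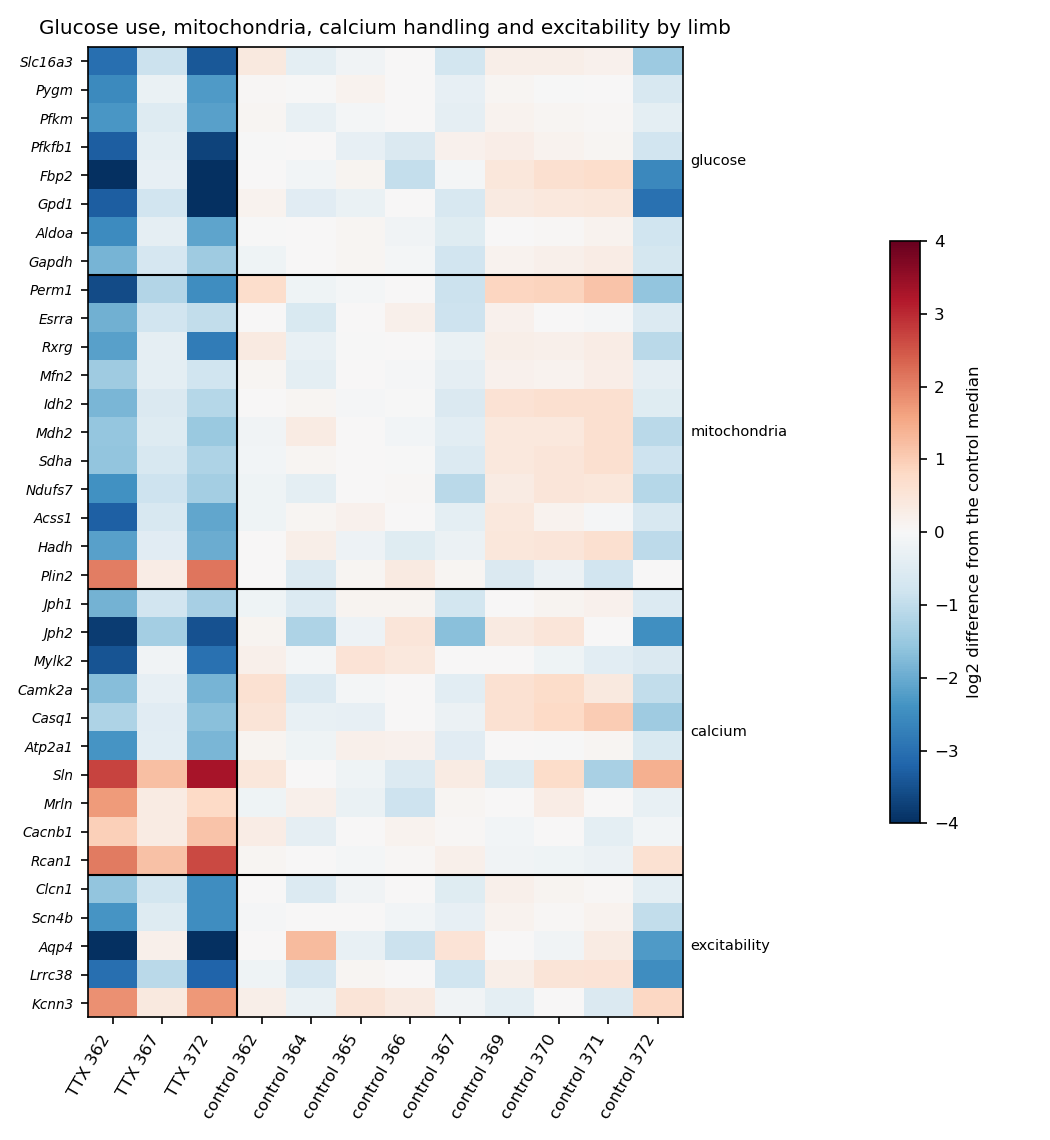
Log2 difference of each limb (columns; TTX limbs left of the line) from the median of the 9 control limbs, for named genes of 4 groups; colours stop at 4. Limbs 362 and 372 are strongly shifted in most rows and limb 367 weakly, and among the control limbs that of animal 372 is shifted the same way for Fbp2, Gpd1, Jph2, Aqp4 and Lrrc38.

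In the cycle of Krebs and the entry of pyruvate, 15 of 43 members were lower and 2 higher (9 and 2 as deposited), with a median log2 FC of −0.65. The median left minus right difference of the list was −0.58 in animal 362, −0.10 in animal 367 and −0.19 in animal 372. Idh2, the mitochondrial isocitrate dehydrogenase, had 211, 507 and 338 rescaled CPM against 502 to 1185 (median 753) (log2 FC −1.28, SE 0.29, adjusted p = 0.017). Mdh2, malate dehydrogenase, had 323, 662 and 336 against 443 to 1485 (log2 FC −1.20, adjusted p = 0.031). Of 44 complex I genes 7 were lower and 0 higher (4 and 0 as deposited), among them Ndufs7 at 40.4, 125 and 85.6 against 99.7 to 312 (median 221) (log2 FC −1.37, SE 0.37, adjusted p = 0.028). Of 62 genes of complexes II to V 8 were lower and 2 higher, with a median log2 FC of −0.42. With the values as deposited 2 were lower and 4 higher with a median of −0.05. Over all rows 2.33% were then lower and 20.3% higher, with a median of 0.22. Sdha, the flavoprotein of succinate dehydrogenase, had 238, 463 and 305 against 408 to 1127 (median 721) (log2 FC −1.17, SE 0.26, adjusted p = 0.016), whereas Atp5if1, the inhibitor of ATP synthase, rose to 211, 105 and 132 from 53.1 to 116 (median 68.05) (log2 FC 0.93, SE 0.21, adjusted p = 0.017). Limb 367 was inside the control range for 15 of the 17 called genes of the Krebs list, 6 of 7 of complex I and 8 of 10 of complexes II to V. In the blocked fit without animal 367, which called 5.42% of all rows, 5 of 43, 1 of 44 and 1 of 62 members of the 3 lists were called, so the first list lay above that share and the others below it. The genes of the mitochondrial ribosome had 1 call in 71, lower, whereas 23 were higher and 0 lower as deposited (median log2 FC −0.03 and 0.34).

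Regulators of mitochondrial genes were lower in 5 of 34 cases and higher in 0. With the values as deposited 3 were lower and 4 higher, where 2.33% and 20.3% of all rows were. The median log2 FC moved from −0.25 to 0.11, and that of all rows from −0.0017 to 0.22. Perm1, a muscle partner of the PGC-1 coactivators, had 15.1, 84.6 and 33.8 rescaled CPM against 63.6 to 429 (median 193) (log2 FC −2.51, SE 0.53, adjusted p = 0.013), with its lowest control value of 63.6 again in the right limb of animal 372. Esrra, the nuclear receptor through which PGC-1 acts, had 36.98, 83.4 and 71.6 against 80.1 to 163 (median 142) (log2 FC −1.04, SE 0.24, adjusted p = 0.018). Rxrg, a retinoid receptor, had 25.6, 91.4 and 16.1 against 55.9 to 152 (median 118) (log2 FC −1.71, SE 0.37, adjusted p = 0.014). Mfn2, which fuses mitochondria, had 175, 359.6 and 270.4 against 358 to 569 (median 473) (log2 FC −0.82, SE 0.19, adjusted p = 0.019).

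Lipid genes were mixed, with 8 of 47 lower and 3 higher. As deposited 3 were lower and 7 higher, where 2.33% and 20.3% of all rows were. The median log2 FC moved from −0.10 to 0.25, near the 0.22 of all rows as deposited. Plin2, which coats lipid droplets, rose to 312, 92.4 and 335 rescaled CPM from 43.04 to 96.6 (median 74.6) (log2 FC 1.68, SE 0.30, adjusted p = 0.0096), chiefly in limbs 362 and 372. The acyl-CoA synthetases, which activate fatty acids, split by member. Acsl3 had 159, 85.8 and 90.1 against 39.4 to 109.9 (log2 FC 1.05, adjusted p = 0.022) and Acsl4 137, 93.3 and 89.9 against 18.997 to 99.4 (log2 FC 1.52, adjusted p = 0.028), while Acsl6 had 14.2, 53.3 and 11.1 against 28.2 to 179.96 (log2 FC −1.93, adjusted p = 0.019). Hadh, an enzyme of beta-oxidation, had 36.7, 124 and 42.5 against 82.9 to 267 (median 171) (log2 FC −1.53, SE 0.36, adjusted p = 0.019). Acss1, the mitochondrial acetyl-CoA synthetase, had 5.49, 39.7 and 13.95 against 39.6 to 83.6 (median 61.9) (log2 FC −1.95, SE 0.37, adjusted p = 0.010).

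Genes of the cytosolic ribosome were higher in 21 of 84 cases and lower in 1, a paralogue pair standing at the ends. Rpl3, the ribosomal protein of most tissues, had 529.8, 263 and 569 rescaled CPM against 73.01 to 297 (median 131) (log2 FC 1.69, SE 0.33, adjusted p = 0.011), and Rpl3l, its form in skeletal muscle and heart, had 164, 504 and 179.7 against 361 to 845 (median 631) (log2 FC −1.32, SE 0.29, adjusted p = 0.015). Limb 367 was inside the control range in both genes, but over the list that held for 5 of the 22 members called, against 68.0% of all called rows. Rps27a, which carries a fused ubiquitin, had 127, 92.04 and 117 against 47.7 to 77.7 (median 63.5) (log2 FC 0.84, SE 0.14, adjusted p = 0.0093), and all TTX limbs were above all control limbs. Rplp0 and Rpl7a, among the most abundant, did not pass (log2 FC 0.30 and 0.21, adjusted p = 0.23 and 0.49), though Rplp0 did as deposited (adjusted p = 0.015). The count depends on the scaling, since with the values as deposited 76 members were higher and 1 lower, and the median log2 FC of the list moved from 0.46 to 0.83. The blocked fit without animal 367 called 3 of the 84, where it called 5.42% of all rows.

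Translation factors rose in 9 of 53 cases and fell in 0 (26 and 0 as deposited). Eef1a1, the elongation factor of growing and non-muscle cells, had 2889, 1041 and 3137 rescaled CPM against 496 to 929.6 (median 812) (log2 FC 1.497, SE 0.32, adjusted p = 0.013), and all 3 TTX limbs exceeded all control limbs. Eef1a2, its form in adult muscle, had 1468, 2038 and 1696 against 1693 to 2905 (median 2658) and did not pass (log2 FC −0.53, SE 0.21, adjusted p = 0.11), though it did without a trend (adjusted p = 0.042). Eif4a1, the helicase that opens messenger RNA for scanning, had 293, 222 and 360.5 against 93.3 to 196 (median 111) (log2 FC 1.26, SE 0.22, adjusted p = 0.0093), again with no overlap, and Eif4a2 did not pass (log2 FC 0.11, adjusted p = 0.84). Eif5b, which joins the ribosomal subunits, had 1023, 701 and 889 against 189.7 to 656 (log2 FC 1.28, adjusted p = 0.022). In ribosome biogenesis 9 of 57 rose and 1 fell (36 and 0 as deposited). Polr1a, the large subunit of RNA polymerase I, had 270.3, 79.5 and 329 against 30.98 to 218 (median 49.2) (log2 FC 1.76, SE 0.49, adjusted p = 0.033). Myc, a driver of ribosome production, had 15.9, 30.7 and 34.9 against 5.49 to 29.9 (log2 FC 1.36, adjusted p = 0.049), with its lowest TTX value in limb 362, the reverse of most genes. Ubtf, which loads polymerase I, fell to 23.7, 50.1 and 40.9 from 50.6 to 64.9 (log2 FC −0.63, adjusted p = 0.025).

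In protein breakdown the lists differed. None of 47 proteasome genes was called in limma. With the values as deposited 26 were higher, and the median log2 FC of the list was 0.29 rescaled and 0.67 as deposited. Of 29 genes of the atrophy ligases and FoxO, 2 rose and 6 fell (27.6% called, against 9.74% of all rows). As deposited 5 were higher and 1 lower, where 20.3% and 2.33% of all rows were. The median log2 FC moved from −0.10 to 0.27, near the 0.22 of all rows as deposited. Fbxo30, the ligase MUSA1 of denervated muscle, had 69.5, 35.4 and 48.9 rescaled CPM against 11.5 to 28.3 (median 18.1) (log2 FC 1.33, SE 0.25, adjusted p = 0.0096), with no overlap. Asb5 had 203, 104 and 188 against 41.5 to 104 (median 58.8) (log2 FC 1.35, SE 0.27, adjusted p = 0.011). Among those that fell, Mul1, a mitochondrial ligase, had 19.3, 41.8 and 31.1 against 44.1 to 61.5 (median 55.9) (log2 FC −0.88, SE 0.17, adjusted p = 0.011), and Trim72, the membrane repair protein MG53, had 247, 335 and 241 against 364 to 723 (log2 FC −0.94, adjusted p = 0.033). In neither gene did the groups overlap. Autophagy and lysosome genes gave 4 rises and 4 falls in 44 (18.2% called). As deposited 14 were higher and 0 lower, and their median log2 FC was 0.43. Ctsl, a lysosomal protease, had 644, 622 and 1105 against 92.6 to 626 (median 259) (log2 FC 1.74, SE 0.49, adjusted p = 0.033) and 189 to 1124 in the sham left limbs. Ctsb, another, had 470.2, 220.4 and 477 against 184 to 247 (median 213) (log2 FC 0.78, SE 0.19, adjusted p = 0.020), and Pink1, which marks damaged mitochondria, had 159, 346 and 172 against 291 to 383 (log2 FC −0.61, adjusted p = 0.041).

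Of 25 metallothioneins and zinc carriers 5 rose and 0 fell (9 and 0 as deposited). Mt1, a metal-binding protein (chromosome 19, 10826032 to 10827049), had 35.7, 18.1 and 72.8 rescaled CPM against 0.994 to 12.38 (median 3.65) (log2 FC 2.79, SE 0.56, adjusted p = 0.011). Mt2A had 51.3, 47.4 and 178 against 2.14 to 50.9 (median 13.2) (log2 FC 2.56, SE 0.67, adjusted p = 0.027). Sham left limbs had up to 39.1 and 156, above the weakest TTX limb in both genes, and short near-identical genes such as these can share reads. Of 35 heat shock and chaperone genes 7 rose and 1 fell (16 and 1 as deposited). Hsp90aa1, the inducible HSP90, had 440.2, 369 and 353 against 97.9 to 243 (median 134) (log2 FC 1.32, SE 0.29, adjusted p = 0.016), and the 3 TTX limbs lay close together, but the sham left limbs had 176 to 462. Fkbp4, a co-chaperone of HSP90, fell to 99.8, 247 and 115 from 225 to 314 (median 278) (log2 FC −0.95, SE 0.21, adjusted p = 0.015).

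Of 40 genes of the ATF4 response and the endoplasmic reticulum 6 rose and 5 fell (13 and 2 as deposited). Sdf2l1, Calr and Hsp90b1, which fold proteins in the reticulum, rose, Sdf2l1 most. It had 14.9, 9.16 and 17.9 against 3.14 to 6.61 (log2 FC 1.40, adjusted p = 0.0095), and Calr had 792, 625 and 637 against 377 to 539 (log2 FC 0.64, adjusted p = 0.019). In both genes the TTX limbs were above every control limb. Asns, asparagine synthetase, rose in limbs 362 and 372 alone, with 14.6, 1.15 and 13.9 against 0.209 to 3.54 (median 1.23) (log2 FC 1.72, SE 0.50, adjusted p = 0.037). Ddit4l2, a repressor of mTORC1, fell to 13.1, 93.4 and 8.40 from 66.6 to 137 (median 103) (log2 FC −2.15, SE 0.43, adjusted p = 0.011), limb 367 being within the control range. Among the polyamine genes, Sat1, the enzyme that marks polyamines for export (chromosome X, 40158354 to 40161642), had 228, 143 and 249.5 against 16.1 to 106 (median 35.9) (log2 FC 2.39, SE 0.48, adjusted p = 0.011), with the groups apart and with 194 in the top sham limb. Odc1, which makes polyamines, and its activator Azin1 rose as well (log2 FC 0.69 and 0.73, adjusted p = 0.038 and 0.029), while Oaz2, an antizyme that holds Odc1 down, fell to 174, 309 and 144 from 306 to 409 (log2 FC −0.86, adjusted p = 0.011).

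Of 35 factors that follow activity 2 were higher and 5 lower (5 and 4 as deposited). They included Nr4a1, a nuclear receptor induced by contraction, which fell to 13.5, 92.1 and 19.5 rescaled CPM from 82.4 to 261 (median 187) (log2 FC −2.42, SE 0.43, adjusted p = 0.0093). Limbs 362 and 372 were far below control and limb 367 was near the lower end. Nfatc1, the calcineurin-driven factor, had 20.4, 29.8 and 18.2 against 34.6 to 58.4 (median 48.01) (log2 FC −1.03, SE 0.19, adjusted p = 0.0096) with no overlap. Mss51 fell too, to 7.57, 16.6 and 3.73 from 5.73 to 84.2 (log2 FC −2.01, adjusted p = 0.032). Of 19 clock genes 3 were lower and 0 higher (1 and 2 as deposited): Nfil3 at 4.00, 44.3 and 19.1 against 35.7 to 91.5 (log2 FC −1.58, adjusted p = 0.028), Cry1 at 9.27, 14.2 and 11.3 against 14.4 to 22.1 (log2 FC −0.60, adjusted p = 0.027) and Per2 at 28.5, 32.9 and 29.5 against 33.3 to 60.8 (log2 FC −0.60, adjusted p = 0.038). Per the study's methods, muscles of all groups were collected within the same morning to midday window, and the hour of each muscle is not given in the sources used here. With the values as deposited, neither Cry1 nor Per2 was called (adjusted p = 0.28 and 0.42).

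Among growth factors and secreted proteins 5 of 53 rose and 5 fell (7 and 3 as deposited). Tgfb2, a ligand of the TGF-beta family (chromosome 13, 98161489 to 98261235), had 279, 51.7 and 168 rescaled CPM against 16.1 to 33.5 (median 28.2) (log2 FC 2.29, SE 0.35, adjusted p = 0.0091). The control limbs were tight, all 3 TTX limbs were above them, and the sham left limbs had up to 40.5. Ltbp1, which stores latent TGF-beta in the matrix, had 88.1, 78.95 and 114 against 19.7 to 84.5 (median 33.4) (log2 FC 1.40, SE 0.29, adjusted p = 0.011). Fst, follistatin, which binds myostatin and activins, had 47.7, 15.8 and 24.9 against 5.13 to 14.5 (median 7.13) (log2 FC 1.58, SE 0.34, adjusted p = 0.013), with no overlap. Tnfrsf12a, the TWEAK receptor of denervated muscle, was highest in limb 372, with 38.7, 40.6 and 105 against 6.51 to 50.1 (log2 FC 1.80, adjusted p = 0.037). In the matrix, 2 of 67 genes rose and 3 fell (6 and 1 as deposited). These are 2.99% and 4.48%, below the 4.57% and 5.17% of all rows (20.3% and 2.33% as deposited). The blocked fit without animal 367, added after the response was seen, called 9 of the 67 and 5.42% of all rows. The fall of Lamb2, a laminin chain concentrated at the endplate, was to 59.7, 150.3 and 110.4 from 144 to 276 (median 197) (log2 FC −0.91, SE 0.22, adjusted p = 0.022). Of the proteases, Adam19 had 92.9, 49.8 and 83.3 against 10.7 to 39.4 (median 27.5) (log2 FC 1.46, SE 0.34, adjusted p = 0.018) and Adamts6 18.8, 8.74 and 22.9 against 3.72 to 7.82 (median 5.90) (log2 FC 1.33, SE 0.27, adjusted p = 0.011). All TTX limbs lay above all control limbs in both.

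Several of the 15 largest rises and 15 largest falls with no overlap between the limbs belong to none of the lists. Ppp1r14c, an inhibitor of protein phosphatase 1 (chromosome 1, 39773403 to 39886959), had 191, 54.1 and 210.4 rescaled CPM against 4.50 to 45.01 (median 19.9) (log2 FC 2.83, SE 0.58, adjusted p = 0.012). Aif1l, an actin-binding protein, had 239.7, 58.1 and 355 against 11.03 to 47.6 (median 32.2) (log2 FC 2.59, SE 0.53, adjusted p = 0.011). Gpnmb, a transmembrane glycoprotein of lysosomes, had 395, 335 and 525 against 7.69 to 245 (median 63.01) (log2 FC 2.69, SE 0.75, adjusted p = 0.033), with limb 367 close to the others. Pvr, the nectin-like adhesion receptor CD155, had 78.1, 51.9 and 168 against 9.67 to 35.4 (median 16.95) (log2 FC 2.27, SE 0.40, adjusted p = 0.0093). Serpina12, the secreted protease inhibitor vaspin, had 17.7, 7.06 and 12.6 against low levels of 0.366 to 4.12 (median 1.83) in control (log2 FC 2.06, SE 0.36, adjusted p = 0.0095), and no sham left limb exceeded 2.47.

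Wipf3, a partner of the actin regulator N-WASP (chromosome 4, 83550468 to 83629923), led the falls with no overlap, with 10.02, 40.7 and 7.95 rescaled CPM against 48.5 to 96.00 (median 61.7) (log2 FC −2.07, SE 0.32, adjusted p = 0.0091). Thra, the thyroid hormone receptor alpha (chromosome 10, 83701885 to 83725549; 2 rows, the more abundant given), had 7.24, 22.6 and 8.49 against 24.5 to 64.2 (median 47.3) (log2 FC −1.87, SE 0.34, adjusted p = 0.0096). St8sia5, a sialyltransferase of gangliosides, had 2.64, 8.09 and 2.35 against 11.8 to 19.5 (median 14.3) (log2 FC −1.72, SE 0.25, adjusted p = 0.0091). Adcy9, an adenylyl cyclase, had 19.1, 46.5 and 20.2 against 48.9 to 89.1 (median 70.3) (log2 FC −1.33, SE 0.23, adjusted p = 0.0093). Ptp4a3, the phosphatase PRL-3, had 127, 444 and 175 against 445 to 712 (median 529) (log2 FC −1.29, SE 0.27, adjusted p = 0.012), limb 367 lying at the lower edge of the control range. St3gal1, Aff1, Ros1, Pinlyp, RGD1565323 and Gfod1 were the other members of the 15 that belong to no list, at control medians of 5.94 to 9.90 rescaled CPM, with log2 FC of −1.29 to −1.63.

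Markers of other cells were called in part, against 4.57% higher and 5.17% lower over all rows (20.3% and 2.33% as deposited). None of 12 macrophage, 9 T and NK cell or 6 tendon markers was called in limma (as deposited 1 tendon marker was higher). None of 7 red blood cell markers was called either (0 and 0 as deposited). All 7 had a negative log2 FC, with a median of −0.46 (−0.11 as deposited). The blocked fit without animal 367, added after the response was seen, called 5 of them and 5.42% of all rows. Their summed level was 379, 1469 and 394 rescaled CPM in the TTX limbs against 470 to 2008 in control, so limbs 362 and 372 were below every control limb. The median left minus right difference was −1.13, −0.37 and −1.31 in animals 362, 367 and 372. Of 12 endothelial markers Rgcc was higher and Tie1 lower (16.7% called, 1 and 0 as deposited). Of 11 fibroblast markers Pi16 and Gsn were lower (18.2%, 0 and 0 as deposited). Their median log2 FC moved from −0.32 to 0.04 and from −0.33 to −0.01 with the values as deposited. Of 10 smooth muscle and pericyte markers Cspg4 was lower (0 and 0 as deposited). All 10 had a negative log2 FC (median −0.55, and −0.24 as deposited), and the summed level was 153, 230.1 and 198 against 216 to 455. Of 12 Schwann cell and nerve markers (1 higher and 1 lower as deposited) Prx, of the myelin of the nerve, was lower at 3.01, 10.5 and 4.51 against 9.51 to 16.5 (median 12.02) (log2 FC −1.06, SE 0.25, adjusted p = 0.018). Among the 10 fibre markers, Actn3 and Pygm fell (0 and 2 as deposited), 8 had a negative log2 FC, and the median was −1.22 (−0.84 as deposited). The summed level of the list was 51250, 102627 and 57788 rescaled CPM in the TTX limbs and 84811 to 179387 in control, so limbs 362 and 372 were below every control limb, though the markers were abundant in every limb. The summed macrophage markers were 309, 125 and 220.2 rescaled CPM in the TTX limbs, 93.2 to 294 in control and up to 377 in the sham left limbs, and the summed endothelial markers were 296, 369 and 337 against 362 to 449. Of the neutrophil markers Ncf1 was lower, of the adipocyte markers Cidea was higher, and the remaining satellite cell markers gave no call. As deposited the counts were 0 and 0 for neutrophil, 1 and 0 for adipocyte and 2 and 0 for satellite cell markers. The summed levels hold the size factors, 1.28, 1.01 and 1.25 in the TTX limbs and 0.78 to 1.04 in the control limbs. The part of these cells in the differences above was not tested.

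For the remaining lists the higher and lower counts differed between scalings. Over all rows 4.57% were called higher and 5.17% lower (20.3% and 2.33% as deposited). They were 0 and 1 of 20 for proteasome assembly and ubiquitin (11 and 0 as deposited) and 1 and 2 of 37 for aminoacyl-tRNA synthetases (15 and 0). The dystrophin complex had 0 and 1 of 28 (3 and 0), and antioxidant genes had 2 and 4 of 42 (9 and 3). Amino acid transport and polyamine genes had 4 and 2 of 40 (11 and 1), and matrix proteases 2 and 3 of 43 (4 and 2). Of 19 glucocorticoid-responsive genes 2 were higher and 0 lower (5 and 0), which is 10.5% against 4.57% of all rows. The blocked fit without animal 367 called 6 of the 19 and 5.42% of all rows. Interferon-stimulated genes had 0 and 0 of 35 (2 and 0).

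The first period can be set beside the second, whose limbs came from other animals. Between the limbs of the first and the repeated TTX period no row was called in limma, with 907 rows at an unadjusted p under 0.05 and 3 limbs on each side. Chrna1 had 546 to 1074 rescaled CPM after repeated TTX and 46.6 to 249 after recovery, and its log2 difference between first and repeated TTX was −1.70 (adjusted p = 0.73). Mt1 had 83.8 to 153 and 2.48 to 15.3 (difference −1.57, adjusted p = 0.74). Thra had 2.45 to 9.05 after repeated TTX, and St8sia5 had 0.911 to 0.988 (difference of St8sia5 1.30, adjusted p = 0.21). Fhl3 had 26.6 to 49.4 after repeated TTX and 122.8 to 169 after recovery, against 21.5, 74.8 and 21.4 in the limbs of the first period. For Wipf3 the 2 ranges were 7.06 to 10.2 and 45.4 to 53.7, and for Tgfb2 172 to 244 and 36.9 to 69.5. In these genes limb 367 was the TTX limb nearest to the recovery range or inside it.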

How the data were processed

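Polyadenylated RNA of the TA was sequenced as directional libraries. Per the labels and the study's methods, the authors removed contaminant reads with Bowtie2 2.2.5, aligned the rest with STAR (rn7) and used Partek Flow for later steps. Annotation and counting settings, strand included, are not given in the sources used here, so reads shared by near-identical or overlapping genes may be misassigned. The deposited values are CPM. Only 87.0 to 88.3% of low values were whole multiples of 1 read (within 0.02), so reads were not recovered and no count test was run. Of the value columns, 24 belong to samples and 3 were not used.

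CPM were divided by median of ratios size factors over 24 samples, the normalization that the study names, and analysed as log2(x + 1) with limma 3.58.1 (R 4.3.3, trend, residual df 14) on 18 limbs in 4 groups (TTX, recovery, repeated TTX, control), for rows above 0 in at least 3 limbs. A call needed an adjusted p of 0.05 or less with a FC of 1.2 or more. Scripts were tested on simulated data. Of 14271 rows, 28 exact duplicates were dropped. A symbol with several rows is given by its most abundant row.

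Named genes were the 15 largest rises and 15 largest falls without overlap between limbs (mean of at least 5 in a group), the 4 largest rises and falls called per list, and the 3 members of each list with the highest control mean, Myh and Myl genes, Emb and Kcna7 left out. Musk and Etv5 were named after their values were seen. The lists, and the limbs themselves, were chosen with earlier results of these data known. Samples with the same number are limbs of 1 animal. Their deviations from the group means correlated with a mean r of 0.12 over 9 animals (0.02, −0.01 and 0.51 in animals 362, 367 and 372), over 0.1 in 4. Alternatives covered scaling, pseudocount, filter, choice of control, animal as a block, weights and each limb left out. A few genes that the rule selects are not reported here.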

Additional observations from a re-analysis of the deposited data

Results flagged for a closer look

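In 14 of the 150 named genes, 1 of the 9 control limbs stood apart, with a gap to its nearest neighbour above Dixon's critical share of the whole range. Chance flags about 1 in 20 groups. In 11 of the 14 the limb was the right limb of animal 372. It was low for Ache (11.1 rescaled CPM), Gpd1 (162.5), Lrrc38 (2.48), Myoz1 (1586), Pvalb (273.5), Rxrg (55.9) and Scn4b (388). It was high for Cdkn2b (14.2), Cidea (11.8), Lmod2 (885) and Polr1a (218). Each of these values lay on the side of the TTX limbs. The right limb of animal 367 had 109.9 for Acsl3 and 44.1 for Mul1, and that of animal 371 had 10.7 for Adam19. Without the control limb of animal 372, none of the 137 named calls was lost.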

How the results depend on the processing

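The 1367 calls (641 higher, 726 lower) stayed within 1.5 times under trimmed mean scaling, quantile normalization, pseudocounts of 0.1 and 10, both filters, summed rows, all 12 right limbs as control, no trend and a FC of 1.5 (1146 to 1605). With the values as deposited there were 3171 (2844 higher, 327 lower). Only the TTX and control limbs gave 757 (353 and 404), and array weights 2217 (1094 and 1123). The 3 right limbs of the same animals as control gave 0 calls in limma (0 and 0), with 1411 rows at an unadjusted p under 0.05. With the animal as a fixed replicate block there were 0 calls (2149 unadjusted), and with the animal as a random effect, another form of pairing, 1408. Fits added after seeing the data were the block on the deposited values (0 calls, 2678 unadjusted) and the block without both limbs of animal 367 (759, 339 higher and 420 lower).

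Leaving out each TTX limb in turn gave 0 to 2223 calls (0 to 1094 higher, 0 to 1129 lower), 1 without animal 362, 2223 without 367 and 0 without 372. Without each control limb the count was 868 (369) to 2068 (372), 415 to 992 higher and 453 to 1076 lower. Between first and repeated TTX the 0 calls became 5 with deposited values, 13 with quantile normalization, 1 with a pseudocount of 10, 3 with all 12 right limbs, 3 with array weights, and 0 to 66 without single limbs (66 without TTX limb 362, 1 without control limb 367). The replicate block left it at 0.

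No named call changed sign under any of these settings. Of the 137 named calls, 14 were lost with the deposited values, 28 with only the 12 limbs, 18 with all 12 right limbs as control, all with the full block, without TTX limb 362 or 372 and with the 3 right limbs as control, and 0 to 21 without single control limbs. Of the 13 named genes not called, 5 gained a call without a trend, 5 with a mean of at least 1, 3 with array weights, 2 with the deposited values, 1 with a pseudocount of 10, 1 with summed rows, 4 without TTX limb 367 and 0 to 3 without single control limbs. The causes were not tested. Tests on counts, planned for recovered reads, were not run. The TTX group holds 3 limbs, 1 of them weak, and the control limbs were taken at 3 stages.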
